A study of Homo sapiens with 4 samples.

Results

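The adrenergic core regulatory transcription factors are a small group of DNA-binding proteins that hold sympathetic neuroblasts in their cell state. The 8 members described here are *PHOX2A*, *HAND2*, *GATA2*, *GATA3*, *ISL1*, *TBX2*, *TFAP2B* and *INSM1*, taken by symbol from the 57820 genes of the deposited table by a rule that uses no measured value, although it was written with earlier results of these data known. The cells were SK-N-SH, an established human neuroblastoma cell line, sequenced as RNA in 2 libraries per condition. All cells carried the same lentiviral vector, in which the EF1a promoter drives the insert. In the *RP5-998N21.4* OE libraries (genotype label RP5-998N21.4 overexpressed) the insert was the cDNA of this long noncoding RNA. In the vector control libraries (genotype label wild type, titled WT) the vector was empty. No source used here says whether replicates came from separate transductions, so p-values measure the spread between these libraries, which may be technical.

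In the sympathetic lineage these factors bind their own and each other's regulatory regions and form an autoregulatory circuit. The homeodomain proteins PHOX2A and ISL1, the basic helix-loop-helix protein HAND2, the zinc-finger proteins GATA2, GATA3 and INSM1, the T-box protein TBX2 and the AP-2 protein TFAP2B sit on shared enhancers in neuroblastoma cells and sustain genes of noradrenaline synthesis and storage. Neuroblastoma lines also hold cells in a mesenchymal state with a separate set of factors, among them the homeodomain protein PRRX1 and AP-1 proteins, and SK-N-SH is known as a mixture of neuroblast-like and substrate-adherent cells. In bulk RNA, more cells of one kind and more RNA per cell cannot be told apart.

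Library totals lay between 23785164 and 28307591 counts, and TMM factors between 0.976 and 1.02. *RP5-998N21.4* had 32 and 33 counts in vector control cells, against 2407 and 2808 in OE cells (log2 fold change 6.11, SE 0.108, edgeR adjusted p = 0.0109). Near-identical copies of this gene on chromosome 1 were not analysed here, so the size of that difference is uncertain. Levels are given in CPM, counts per 1000000 counts of the TMM-scaled library, and differences as log2 fold changes of OE over vector control with their standard errors (SE). An adjusted p is corrected over all tested genes. Of 11 listed markers of blood, endothelial, epithelial, liver and glial cells found in the table, 4 or 5 were at 0 counts in each library, and their summed level was 16.8 and 18.5 CPM in vector control cells, against 3.83 and 6.98 CPM in OE cells. In the vector control most of that sum was *CD68*, a lysosomal protein (10.3 and 10.1 CPM in the vector control and 0.0797 and 4.36 CPM in OE), while the leukocyte marker *PTPRC* had at most 4 counts. The part of these markers in the results was not tested.

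Of the 8 adrenergic factors, 7 were measurable, each with at least 330 counts in every library, and *INSM1* was at 0 counts in all 4. All 7 had a positive log2 fold change. In 6 of them the lower OE library exceeded the higher vector control library, which held for 27.8% of the 20528 tested genes, while in 27.6% both OE libraries were below. The exception was *TBX2*. The median log2 fold change of the 7 factors was 0.67, against 0.01 over all tested genes. At the study's thresholds (adjusted p under 0.01 and a log2 fold change beyond 0.5), edgeR's quasi-likelihood test called 0 of the 7, as it called 0 of all tested genes (0%). At an adjusted p under 0.05 and the same fold it also called 0 of the 7, against 0.594% of all tested genes, and at any fold 0 of the 7, against 0.283% higher and 0.312% lower. At an unadjusted p under 0.05, 4 of the 7 were higher in OE (*HAND2*, *GATA2*, *GATA3* and *TFAP2B*), against 10.1% of all tested genes. DESeq2, which the study's methods name, run here with its Wald test, called 2 of the 7 at those thresholds (*GATA3* and *TFAP2B*), against 4.35% of all tested genes called higher, 4.42% called lower and 8.77% in either direction, and gave 4 of the 7 an adjusted p under 0.01 at any fold change, against 6.3%. Limma-voom called 0. The smallest two-sided p that an exact permutation of 4 libraries allows is 0.333.

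**Figure D1:**
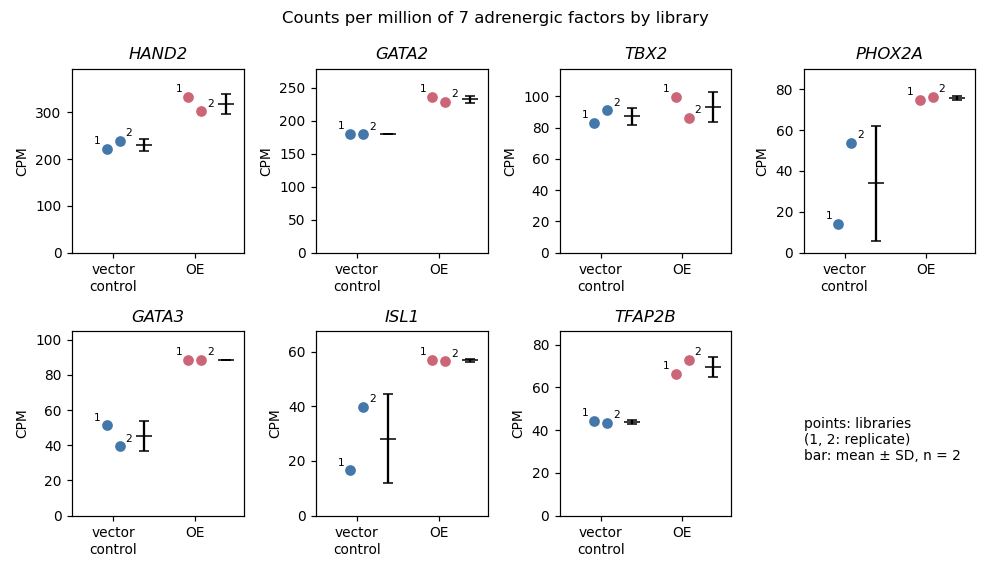
Level of each of the 7 measurable factors in CPM (linear axis from 0) in the 2 vector control (blue) and 2 OE (red) libraries, with the mean ± SD of each condition as a black bar. The OE points lie above the vector control points in every panel but *TBX2*, and *PHOX2A* and *ISL1* have widely separated vector control points (14.2 and 53.8 CPM, and 16.6 and 39.8 CPM).

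*HAND2* (ENSG00000164107.7) is the basic helix-loop-helix factor of sympathetic precursors, needed for their noradrenergic differentiation. In hg19, the build of all gene positions here, it lies at chr4:174446120-174451380 on the minus strand. Its level was 221.6 and 238.7 CPM in vector control cells, and 333.5 and 302.2 CPM in OE cells. The groups did not overlap, and the difference of the means (230.1 ± 12.1 against 317.9 ± 22.1 CPM, SD, n = 2) was larger than either SD. The log2 fold change was 0.47 (SE 0.0845, edgeR adjusted p = 0.11). Fits without 1 of the libraries gave 0.39 to 0.53.

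*GATA2* and *GATA3* are zinc-finger factors that bind the same GATA core sequence and act in sympathetic neurons and in blood cells. *GATA2* (ENSG00000179348.7, minus strand of chromosome 3, 128198270 to 128212044) was at 180.1 and 179.6 CPM in the vector control and at 236.6 and 228.6 CPM in OE. It had the smallest gap between vector control replicates of the 7 factors, a ratio of 1.00, and a log2 fold change of 0.37 (SE 0.0614, edgeR adjusted p = 0.0987). In DESeq2 its adjusted p was 4.01e-11, but the change stayed below the fold threshold. *GATA3* (ENSG00000107485.11, plus strand of chromosome 10, 8087341 to 8117161) was at 51.4 and 39.4 CPM in the vector control and at 88.7 and 88.6 CPM in OE. Its lowest OE library was 1.72 times its highest vector control library, the widest such gap among the 7. The log2 fold change of *GATA3* was 0.96 (SE 0.163, edgeR adjusted p = 0.101, DESeq2 adjusted p = 1.19e-06), and fits without 1 of the libraries gave 0.78 to 1.16.

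The paired-type homeodomain factor *PHOX2A* and the LIM homeodomain factor *ISL1* act early in sympathetic neurons, PHOX2A as an activator of the gene for dopamine beta-hydroxylase. They had the highest fitted log2 fold changes of the 7 and the least certain ones, since vector control replicate 1 was far below replicate 2 in both. *PHOX2A* (ENSG00000165462.5, minus strand of chromosome 11, 71950121 to 71956708) was at 14.2 and 53.8 CPM in the vector control and at 74.9 and 76.3 CPM in OE. The vector control replicates differed 3.79-fold, and 3.98% of the genes averaging 10 CPM or more were as far apart or further. The log2 fold change of *PHOX2A* was 1.15 (SE 0.691, edgeR adjusted p = 0.425). Leaving out vector control replicate 1 gave 0.49, and leaving out replicate 2 gave 2.41. *ISL1* (ENSG00000016082.10, plus strand of chromosome 5, 50679282 to 50690564) was at 16.6 and 39.8 CPM in the vector control and at 57.1 and 56.5 CPM in OE. Its vector control replicates differed 2.4-fold, which 5.85% of the same genes matched or exceeded. The log2 fold change of *ISL1* was 1.01 (SE 0.465, edgeR adjusted p = 0.325), and it became 0.51 or 1.77 when vector control replicate 1 or replicate 2 was left out. In both genes the OE replicates were within 1.02-fold of each other and lay above the higher vector control library by 1.39-fold (*PHOX2A*) and 1.42-fold (*ISL1*). Neither gene passed an unadjusted p under 0.05 with all 4 libraries, while both did when either vector control library was left out. Then 6 of the 7 factors passed that p, against 4 of the 7 when an OE library was left out. Over all genes, 1928 and 1856 were higher at that p without vector control replicate 1 and 2, against 1262 and 1421 without OE replicate 1 and 2.

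*TFAP2B*, an AP-2 factor of neural crest and sympathetic precursors, lies on the plus strand of chromosome 6 (ENSG00000008196.8, 50786436 to 50815332). It was at 44.5 and 43.3 CPM in the vector control and at 66.4 and 73.0 CPM in OE. The groups were apart by 1.49-fold at their nearest libraries, and the log2 fold change was 0.67 (SE 0.0988, edgeR adjusted p = 0.0893, DESeq2 adjusted p = 5.27e-09). Fits without 1 of the libraries gave 0.60 to 0.73. *TBX2*, a T-box repressor of cell cycle inhibitor genes, lies on the plus strand of chromosome 17 (ENSG00000121068.9, 59477204 to 59486827). It was at 83.1 and 91.2 CPM in the vector control and at 99.8 and 86.4 CPM in OE, so the groups overlapped. Its log2 fold change of 0.10 was smaller than its SE of 0.117 (edgeR adjusted p = 0.698) and turned to -0.012 without OE replicate 1.

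**Figure D2:**
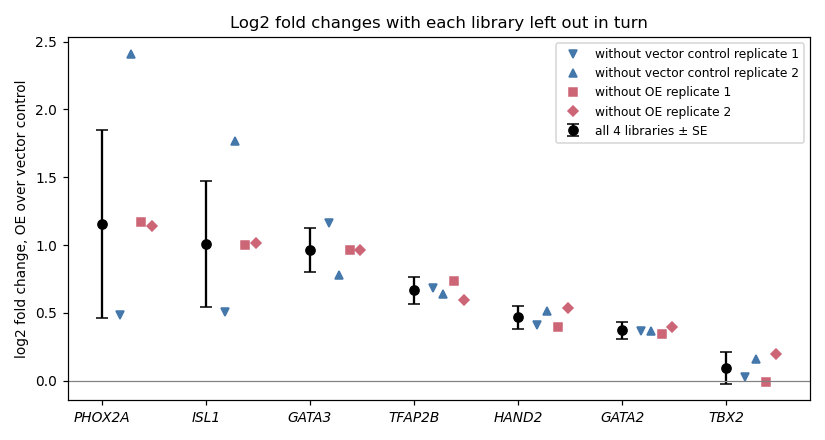
Log2 fold change of OE over vector control for the 7 measurable factors, with all 4 libraries (black, ± SE) and from fits without 1 of the libraries (blue, a vector control library; red, an OE library). *PHOX2A* moves from 1.15 to 0.49 or 2.41 and *ISL1* from 1.01 to 0.51 or 1.77 with the vector control library left out, while *GATA2* stays between 0.35 and 0.40.

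*INSM1*, a zinc-finger transcriptional repressor that promotes neuroendocrine differentiation, is a gene of 1 exon on the plus strand of chromosome 20 (ENSG00000173404.3, 20348748 to 20351593). Its single listed transcript of 2846 nt had 0 counts in each of the 4 libraries, which allows up to 3 counts, or 0.104 to 0.129 CPM, by counting error alone. Whether the 0 comes from the counting or annotation behind the table was not tested, so it sets no limit on expression. No difference between conditions could be measured. Its paralogue *INSM2* (ENSG00000168348.3) was read at 204 and 176 counts in vector control cells, against 1016 and 1124 in OE cells. That is 8.76 and 7.49 CPM against 40.5 and 38.9 CPM. The log2 fold change of *INSM2* was 2.29 (SE 0.134, edgeR adjusted p = 0.0376), below 0.05 but above the study's threshold in edgeR's test. In DESeq2, which the study's methods name, *INSM2* passed the study's thresholds (log2 fold change 2.29, DESeq2 adjusted p = 4.13e-52). The longest stretch of identical bases between annotated *INSM1* and *INSM2* transcripts was 27 bases.

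Levels of different genes were compared per transcript length, as CPM per kilobase of transcript. In the vector control, *HAND2* was highest at 122.4 ± 8.21 (SD, n = 2), followed by *GATA2* at 55.6 ± 1.07 and *TBX2* at 23.9 ± 0.418. *PHOX2A* (19.99 ± 16.5), *GATA3* (14.8 ± 2.66), *ISL1* (12.5 ± 6.61) and *TFAP2B* (11.8 ± 0.846) came next, and the libraries of *PHOX2A* overlapped those of the other three and of *TBX2*. In the OE libraries the order was *HAND2* (194.9 ± 10.7), *GATA2* (70.8 ± 1.98), *PHOX2A* (44.5 ± 0.588), *GATA3* (29.6 ± 0.144), *TBX2* (25.7 ± 5.5), *ISL1* (24.9 ± 0.826) and *TFAP2B* (17.7 ± 0.361). There *GATA3* lay above *ISL1* without overlap, and the place of *TBX2* was unresolved, because its 2 libraries (29.6 and 21.8) spanned *ISL1* and reached *GATA3*. *PHOX2A* was below *TBX2* in vector control replicate 1 and above it in the other 3 libraries.

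**Figure D3:**
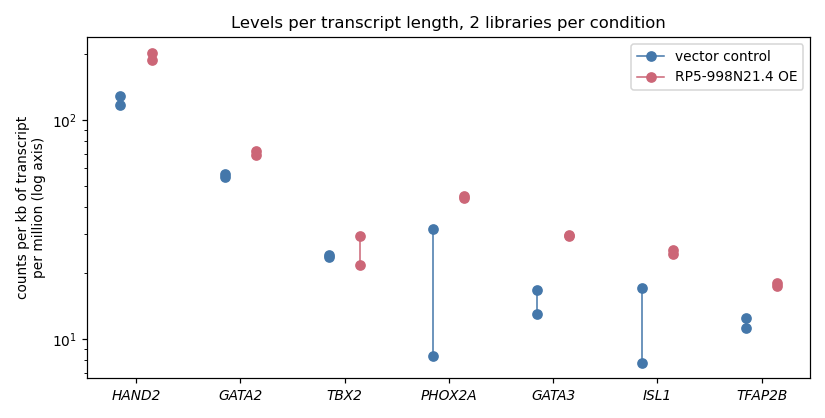
CPM per kilobase of transcript (log axis) of the 7 factors, ordered by their vector control mean, with 1 point per library and a line joining the 2 libraries of a condition. *HAND2* and *GATA2* lie above the other factors in both conditions, and the vector control points of *PHOX2A* (8.34 and 31.6) overlap those of 4 other factors.

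The table gives counts per transcript, and the members differed in how stable that assignment was. In *PHOX2A*, *GATA2* and *GATA3* 1 transcript held at least 96.5% of the counts in every library. In *HAND2* the 2-exon transcript ENST00000359562.4 held 84.3% and 83.2% of the counts in the vector control and 76.6% and 75.4% in OE. The 4-exon transcript ENST00000503024.1 was at 34.9 and 40.05 CPM in vector control cells, against 78.1 and 74.4 CPM in OE cells, a 2.04-fold ratio of the means. ENST00000359562.4 was at 186.7 and 198.6 CPM, against 255.4 and 227.8 CPM, a 1.25-fold ratio. These transcript ratios were not tested. When the transcript with the highest mean count stood for each gene, the log2 fold change of *HAND2* was 0.33. In *TFAP2B* the transcript ENST00000393655.3 held 92.8%, 91.7% and 93.3% of the counts in vector control replicate 1 and both OE libraries and 0% in vector control replicate 2, where ENST00000263046.4 held 89.4%. The summed *TFAP2B* counts of the vector control replicates were 1036 and 1018. In *TBX2* the largest share sat on ENST00000240328.3 in both vector control libraries and OE replicate 2 (100%, 67.5% and 61.3%) and on ENST00000419047.1 in OE replicate 1 (68.3%). Among 10689 genes with more than 1 transcript and at least 100 counts in every library, the leading transcript differed between the replicates in 12% of genes for the vector control and in 12.2% for OE. The gene sums are therefore used throughout for differences.

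**Figure D4:**
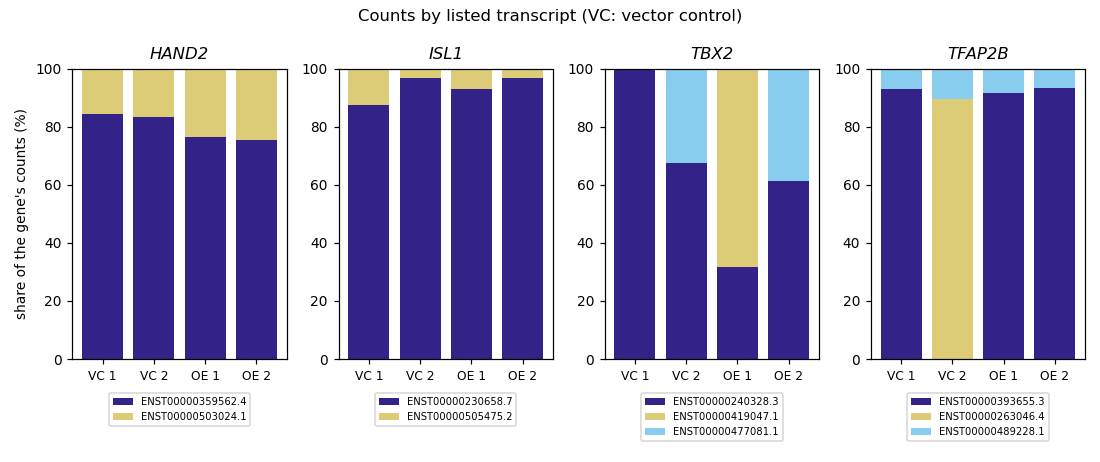
Share of each gene's counts (percent, linear axis) on its listed transcripts in each library, for the 4 factors with a second transcript above 10% in any library. The second *HAND2* transcript takes from 15.7% to 24.6%, and the *TFAP2B* and *TBX2* shares change between replicates of 1 condition.

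Several factors have a noncoding gene on the other strand, and the library kit named in the labels does not mark strand. *HAND2-AS1* (ENSG00000237125.4), which shares 867 exonic bases with *HAND2* in the annotation, was at 273.4 and 247.9 CPM in the vector control and at 475.9 and 460.8 CPM in OE (log2 fold change 0.85, SE 0.0737, edgeR adjusted p = 0.059). Of the bases of ENST00000503024.1, 29.9% lie in *HAND2-AS1* exons, against 7.59% for ENST00000359562.4, so reads in the shared bases cannot be assigned to either strand. *GATA3-AS1* starts 1204 bases from the main *GATA3* transcript, shares no exonic base with it, and was at 8.07 and 7.11 CPM in the vector control and at 14.7 and 13.3 CPM in OE (log2 fold change 0.88, SE 0.148, edgeR adjusted p = 0.10). *ISL1-DT*, listed as CTD-2314G24.2, starts 116 bases from *ISL1* on the other strand. It was at 36.2 and 37.1 CPM in the vector control and at 62.2 and 55.5 CPM in OE (log2 fold change 0.68, SE 0.105, edgeR adjusted p = 0.0931). Its vector control replicates were close, unlike those of *ISL1*. *TBX2-AS1*, listed as RP11-332H18.4, was lower in OE (8.76 and 8.38 CPM against 6.34 and 5.53 CPM, log2 fold change -0.53, SE 0.153, edgeR adjusted p = 0.191). It shares no exonic base with *TBX2*. RP11-332H18.5, an unlisted noncoding gene on the other strand, shares 28 exonic bases with *TBX2*. Named after its values were seen, it had 25 and 29 counts in vector control cells, against 57 and 46 in OE cells. The last of the 5 listed noncoding genes, *GATA2-AS1*, overlapped between conditions. *PHOX2A* shares 71 exonic bases with the protein-coding gene *INPPL1*, read at 2624 and 2871 counts in vector control cells, against 1726 and 3250 in OE cells. The part of the shared bases in the *PHOX2A* counts was not tested.

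The promoters of 6 of the factors are in the RefSeq table (GRCh38.p14), those of *PHOX2A*, *HAND2*, *GATA2*, *GATA3*, *ISL1* and *TFAP2B*. For each, the 250 bases before the start of the transcript with the highest count were searched on both strands for the letters that members of the group are known to bind: for GATA factors the forms AGATAA or AGATAG or TGATAA or TGATAG, for HAND2 and its partners the E-box CANNTG, for homeodomain proteins the core TAAT, for AP-2 proteins GCCNNNGGC and for T-box proteins GGTGTGA. The 4 shown here are those with both homeodomain and GATA letters (*HAND2* and *ISL1*) and those of the factors that DESeq2 called (*GATA3* and *TFAP2B*). They are written 5′ to 3′ on the gene's strand, from chr4:173530230-173530479 (minus), chr5:51383198-51383447 (plus), chr10:8054438-8054687 (plus) and chr6:50818621-50818870 (plus), with any matching letters in capitals, and overlapping matches run together.
HAND2: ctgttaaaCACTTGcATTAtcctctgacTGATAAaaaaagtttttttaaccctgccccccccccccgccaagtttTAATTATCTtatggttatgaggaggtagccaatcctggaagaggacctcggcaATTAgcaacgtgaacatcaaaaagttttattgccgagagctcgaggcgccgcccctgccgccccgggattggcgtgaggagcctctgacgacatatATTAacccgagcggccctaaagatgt
ISL1: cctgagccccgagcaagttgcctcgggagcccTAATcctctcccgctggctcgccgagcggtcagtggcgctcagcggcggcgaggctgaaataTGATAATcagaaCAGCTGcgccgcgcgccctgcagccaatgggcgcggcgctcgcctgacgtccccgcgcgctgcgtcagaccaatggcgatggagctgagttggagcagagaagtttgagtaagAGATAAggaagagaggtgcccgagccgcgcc
GATA3: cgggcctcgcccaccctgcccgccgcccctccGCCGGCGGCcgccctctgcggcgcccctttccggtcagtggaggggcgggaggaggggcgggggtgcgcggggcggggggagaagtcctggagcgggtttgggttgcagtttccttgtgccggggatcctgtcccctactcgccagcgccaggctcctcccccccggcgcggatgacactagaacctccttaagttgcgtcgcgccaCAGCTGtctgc
TFAP2B: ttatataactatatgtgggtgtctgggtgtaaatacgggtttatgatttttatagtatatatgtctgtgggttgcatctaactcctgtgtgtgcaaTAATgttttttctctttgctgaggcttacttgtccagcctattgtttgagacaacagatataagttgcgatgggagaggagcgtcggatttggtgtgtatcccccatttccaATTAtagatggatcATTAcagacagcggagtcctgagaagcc

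GATA letters occurred in 2 of the 6 windows, those of *HAND2* (2 matches) and *ISL1* (2 matches), and in 22.9% of the 27305 windows in the table. TAAT occurred in 3 of 6, with 5 matches in *HAND2*, 2 in *ISL1* and 3 in *TFAP2B*, against 48.2% of all windows. The E-box letters were in 3 of 6 windows (*HAND2*, *ISL1* and *GATA3*) against 62.2%, the AP-2 letters in 2 of 6 (*GATA2* and *GATA3*) against 19.7%, and the T-box letters in 0 of 6 against 2.72%. The *PHOX2A* window held none of the 5. In *ISL1* the GATA matches begin 156 and 31 bases before the start. These are matches of letters only. The windows differed in base composition, with 49.6% G and C in *HAND2*, 65.2% in *ISL1*, 73.6% in *GATA3* and 40.8% in *TFAP2B*, against a median of 58% over all windows.

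Paralogues of the factors were measured to see which family members these cells express. Of 15 listed, 9 were tested, 8 were higher and 1 lower in OE, and by edgeR 3 were higher and 0 lower at an unadjusted p under 0.05, against 10.1% and 10.7% of all tested genes. Among these were *INSM2*, described above, and *HAND1*. *HAND1* was at 16.6 and 10.6 CPM in the vector control and at 28.7 and 29.2 CPM in OE (log2 fold change 1.09, SE 0.255, edgeR adjusted p = 0.147). *TBX3*, at the highest CPM of the paralogues, gave 171.2 and 164.7 CPM in the vector control and 184.0 and 177.0 CPM in OE (log2 fold change 0.10, SE 0.0681). Of the other GATA genes, named after their values were seen, *GATA4* was the 1 paralogue with a lower fitted value, at 48.5 and 44.2 CPM in the vector control and at 54.5 and 8.92 CPM in OE (log2 fold change -0.55, edgeR adjusted p = 0.777), with OE replicate 2 apart. *GATA1*, *GATA5* and *GATA6* had at most 4 counts in any library.

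Among 23 other transcription factors of the adrenergic state, 22 were tested. Of these, 21 were higher and 1 lower in OE, with 17 of the 22 having both OE libraries above both vector control libraries, against 27.8% of all tested genes. At an unadjusted p under 0.05, 14 were higher and 0 lower, by edgeR, against 10.1% and 10.7% of all tested genes. DESeq2 called 12, all higher, against 4.35%. The list's median log2 fold change was 0.68, next to 0.67 for the 7 core factors. The neuronal repressor *SCRT1* was at 6.61 and 7.32 CPM against 16.9 and 19.3 CPM (log2 fold change 1.38, SE 0.147, edgeR adjusted p = 0.0662). *SOX4* (132.7 and 121.3 against 199.7 and 196.6 CPM), *KLF13* (78.9 and 83.9 against 172.8 and 145.3 CPM), *KLF7* (153.0 and 129.8 against 234.6 and 231.8 CPM) and *ZNF536* (11.2 and 11.8 against 24.5 and 21.0 CPM) also had no overlap. Large gaps between replicates of 1 condition occurred here as well. *MEIS2*, named after its values were seen, was at 14.2 and 125.8 CPM in the vector control and at 104.4 and 111.1 CPM in OE, low in the same library as *PHOX2A* and *ISL1*.

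The factors work with bridging and chromatin proteins, such as LMO and LDB proteins and E-proteins, and as a group these had a median near 0. Of 21 partners, 20 were tested, 11 higher and 9 lower, with a median log2 fold change of 0.03. By edgeR, 3 were higher and 1 lower at an unadjusted p under 0.05, near the 10.1% and 10.7% of all tested genes, so the counts are no result about the partners. *LMO1*, a LIM-only bridging protein of the neuroblastoma circuit, was at 3.99 and 3.28 CPM in the vector control and at 7.41 and 6.91 CPM in OE (log2 fold change 0.98, SE 0.183, edgeR adjusted p = 0.113). *CITED2*, a coactivator that binds AP-2 proteins, was at 666.2 and 662.9 CPM against 812.4 and 792.6 CPM (log2 fold change 0.27, SE 0.0423, edgeR adjusted p = 0.0933), and the GATA cofactor *ZFPM1* at 17.7 and 17.2 CPM against 23.7 and 20.9 CPM (log2 fold change 0.36, SE 0.122, edgeR adjusted p = 0.232). The partner that was lower at that p was *LDB2*, a LIM-domain-binding protein, at 10.8 and 11.1 CPM in the vector control and at 3.35 and 4.11 CPM in OE (log2 fold change -1.55, SE 0.175, edgeR adjusted p = 0.0704). *TCF4*, an E-protein, was at 270.6 and 234.8 CPM against 279.2 and 274.7 CPM, a log2 fold change of 0.13 with an SE of 0.0926.

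Of 23 genes of the adrenergic programme that serve noradrenaline handling, secretory granules and neurites, 21 were tested, 19 higher and 2 lower in OE, with a median log2 fold change of 0.82. At an unadjusted p under 0.05, 13 were higher and 1 (the vesicular transporter gene *SLC18A2*, 10.7 and 12.8 against 8.09 and 7.99 CPM) was lower in edgeR's test, against 10.1% and 10.7% of all tested genes, and DESeq2 called 12, all higher, against 4.35%. The granule protein gene *CHGA* was at 49.7 and 48.6 CPM in the vector control and at 136.0 and 121.4 CPM in OE (log2 fold change 1.39, SE 0.0985, edgeR adjusted p = 0.0449). *CHGB* was at 46.1 and 45.1 CPM against 83.4 and 89.0 CPM, and *DBH*, which makes noradrenaline from dopamine, at 22.7 and 23.5 CPM against 41.5 and 40.2 CPM (log2 fold change 0.82, SE 0.0934, edgeR adjusted p = 0.0707). The neuronal genes *ELAVL3* (33.2 and 31.9 against 64.1 and 62.8 CPM), *PRPH* (2.02 and 1.57 against 5.70 and 6.29 CPM) and *STMN2* (106.5 and 103.3 against 149.1 and 156.1 CPM) were likewise separated. The neuronal genes *GAP43* and *ELAVL4*, named after their values were seen, overlapped between conditions. *GAP43* was at 41.4 and 41.5 against 37.7 and 41.6 CPM (log2 fold change -0.06), and *ELAVL4* at 78.9 and 12.5 against 24.6 and 128.6 CPM. The highest fold change of the list, that of the cytochrome gene *CYB561*, rested on OE replicate 2, with 8.98 and 9.79 CPM in the vector control and 13.5 and 250.5 CPM in OE, and is named after its values were seen. *SCG2*, the highest of the list, was at 703.4 and 685.8 CPM in the vector control and at 701.5 and 713.6 CPM in OE, and *TH*, the first enzyme of catecholamine synthesis, was at 0 counts in all 4 libraries, and whether that 0 comes from the counting or annotation was not tested.

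The mesenchymal factors had a median below 0. Of 26, 25 were tested, 7 higher and 18 lower in OE, with a median log2 fold change of -0.15 (-0.22 without OE replicate 1, and -0.08 with the leading transcript of each gene). In 12 of the 25 both OE libraries were below both vector control libraries, against 27.6% of all tested genes. In 6 of the 25 both were above, against 27.8%. At an unadjusted p under 0.05, 9 were lower and 1 higher in edgeR's test, against 10.7% and 10.1% of all genes, 0 had an adjusted p under 0.05 (0.312% of all genes lower and 0.283% higher), and DESeq2 called 3, all lower, against 4.42% of all genes called lower and 4.35% higher. *SNAI2*, a repressor of epithelial genes, was at 71.0 and 67.5 CPM in the vector control and at 43.8 and 42.6 CPM in OE (log2 fold change -0.68, SE 0.089, edgeR adjusted p = 0.078). *TBX18*, a T-box factor, was at 25.6 and 26.3 CPM against 17.1 and 17.7 CPM (log2 fold change -0.58, SE 0.103, edgeR adjusted p = 0.107). *JUNB* (407.1 and 443.6 against 334.2 and 304.1 CPM), *YAP1* (331.2 and 314.5 against 269.6 and 266.7 CPM), *TEAD1* (549.1 and 490.2 against 405.5 and 420.7 CPM), *FOSL2* (467.5 and 451.2 against 408.6 and 393.9 CPM) and *NR3C1* (196.1 and 183.0 against 144.2 and 158.3 CPM) were lower without overlap. *PRRX1*, named after its values were seen, was at 352.7 and 443.0 CPM against 287.9 and 223.9 CPM (log2 fold change -0.64, SE 0.186, edgeR adjusted p = 0.194). Among the 6 factors with both OE libraries above were *PRRX2*, *JUN* and *FOSL1*, also named after their values were seen. *PRRX2*, the 1 factor higher at an unadjusted p under 0.05, was at 2.62 and 3.92 CPM against 5.22 and 6.08 CPM (log2 fold change 0.79). *JUN* was at 420.7 and 401.4 against 446.0 and 428.1 CPM, and *FOSL1* at 158.2 and 163.5 against 176.3 and 180.2 CPM. No test of the difference between the adrenergic and the mesenchymal list was made.

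**Figure D5:**
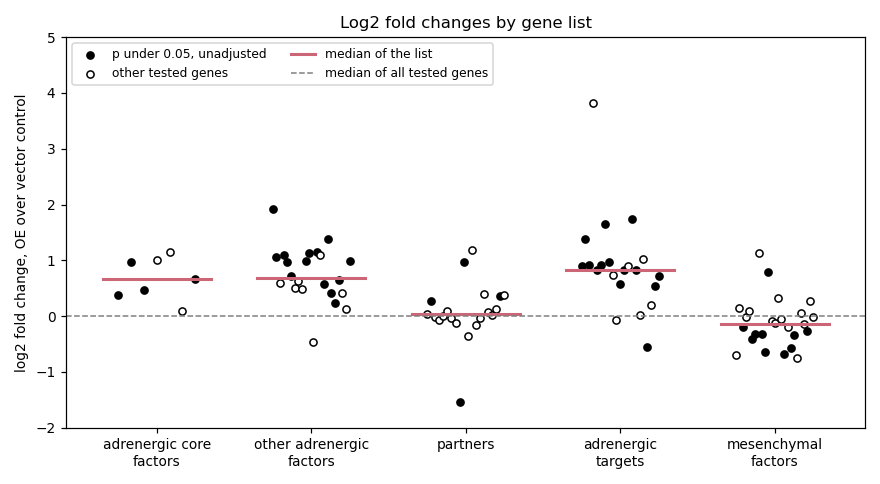
Log2 fold change of OE over vector control for each tested gene of 5 lists, 1 point per gene, filled where edgeR's unadjusted p was under 0.05. The red lines are list medians (0.67 for the core factors, 0.68 for the other adrenergic factors, 0.03 for partners, 0.82 for adrenergic targets and -0.15 for mesenchymal factors) and the dashed line is the median of all tested genes, 0.01.

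Averaged over the 7 factors, the centred log2 CPM was -0.58 and -0.15 in vector control cells, against 0.39 and 0.35 in OE cells. Among 11451 other genes averaging 10 CPM or more, the profiles nearest to this average over the 4 libraries were those of *SH2D5* (21.0 and 28.5 CPM against 41.6 and 39.1 CPM, root mean square distance 0.0212 on the log2 scale), AC074286.1 (6.57 and 8.60 against 13.0 and 13.2 CPM, distance 0.0375) and *LPPR5* (distance 0.0387). With 4 libraries, many genes can lie this near.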

How the data were processed

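SK-N-SH cells were profiled by RNA-seq in 4 libraries, 2 per condition, grouped by their treatment labels, with replicate numbers from the titles. The authors deposited whole-number counts per Ensembl transcript without normalization, after FastQC, Trimmomatic and mapping to hg19 with Bowtie2 (2.0.4, per the labels, which also name Picard 2.21.6 and StringTie 2.1.6 without a role). The counting tool, the annotation release and the use of strand are not given in the sources used here. A count split over transcripts can move between them, so counts were summed per gene. Intervals and floors cover counting error only, and a 0 was read as at most 3 counts.

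Genes kept by filterByExpr (20528) were normalized by TMM and tested in edgeR 4.0.16 (quasi-likelihood test, Benjamini-Hochberg over all tested genes, no covariates, R 4.3.3). The standard error is the log2 fold change divided by the root of F. DESeq2 1.42.0 and limma 3.58.1 (voom) were alternatives, as were other normalizations and filters, robust dispersions, a replicate block, fits without 1 library, fits without mitochondrial genes, a looser adjusted p and the leading transcript of each gene. The scripts were tested on simulated data. Positions, transcript lengths and exons were read from GENCODE lifted to GRCh37 and matched by Ensembl ID without version. A transcript it lacks (ENST00000263046.4) took the length of the leading *TFAP2B* transcript. Promoters came from RefSeq by symbol.

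The members and lists were chosen with earlier results of these data known. The adrenergic factors and paralogues share genes, among them *HAND1* and *TFAP2A*. Some genes that the lists hold are counted but not reported singly here. *ISL1-DT* was taken for the listed name ISL1-AS1 after the annotation was read. Named genes were all members, in each list the genes with an unadjusted p under 0.05 (at most 6, smallest first), the 2 with the highest CPM, and the 3 nearest profiles. Others are marked or, as *SLC18A2*, *TH*, *GATA2-AS1*, *INPPL1* and *PTPRC*, were also named after their values were seen.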

Additional observations from a re-analysis of the deposited data

How the results depend on the processing

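The number of genes called at the study's thresholds was 0 with edgeR, 1800 with DESeq2, 51 with robust dispersions, 9 with a minimum of 1 count in total, 1 with the transcript with the highest mean count, and 122 at an adjusted p under 0.05. Of the 7 adrenergic factors, 2 were called by DESeq2 and 0 under every other alternative run. Their median log2 fold change (0.67) was 0.71 under upper-quartile normalization and 0.95 with the leading transcript, and ranged from 0.49 to 0.73 when 1 library was left out (lowest without vector control replicate 1). With that transcript *TFAP2B* moved from 0.67 to 1.64, its leading transcript being at 0 in vector control replicate 2. *TBX2* turned to -0.78 with the leading transcript and ranged from -0.012 (without OE replicate 1) to 0.20 (without OE replicate 2) when 1 library was left out. The other 6 factors kept a positive log2 fold change under all 14 alternatives run. With the replicate number as a block, 0 factors were called, and their median was 0.67. The deviations of same-numbered libraries correlated at -0.04 over 11458 genes, so the numbers are not taken as pairs. The cause of these shifts was not tested. With 1 library left in an arm, it is assumed to vary like the other group. The 7 measurable factors had 330 counts or more in every library. For *INSM1*, at 0, depth, counting and annotation cannot be told apart.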
